A study of Caenorhabditis elegans with 16 samples.

Results

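The centre of chromosome III of Caenorhabditis elegans was taken as the 500 bp windows from 3722001 to 10340000 that hold at least 20 counts in each of the 4 input libraries. Of the 13236 windows in these 6.618 Mb, 12917 passed and 319 did not, and the 12917 are 6.76% of the 191140 windows of the whole table that passed the same floor. Of the 319 left out, 200 were under the floor in all 4 inputs and 74 of these held no count in any input. Neither ChIP counts nor enrichment chose the windows. In the 30 windows whose lowest input held 20 to 24 counts, just inside the floor, median log2 enrichment was 0.30 for H3K9me2 and 0.42 for H3K9me3 in met-2. In the 26 windows just outside it, with 15 to 19 counts, these medians were 0.35 and 0.37. The medians for H3K9me2 in set-25 were -1.11 just inside and -0.67 just outside, and those for H3K9me3 under the set-25 label 0.06 and -0.44. Log2 enrichment is the ChIP count over that of its own input, both scaled to the total of their column (CPM) with 0.1 CPM added. Positions are given on the build of the deposited windows, which names no assembly and ends chromosome III at 13783681.

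Chromatin immunoprecipitation sequencing (ChIP-seq) of histone H3 di- and trimethylated at lysine 9 was done on early embryos, before the bean stage, of met-2(n4256) and set-25(n5021) single mutants, both on chromosome III, kept at 20 °C and collected 60 to 65 h after synchronisation as larvae. Each mark in each mutant had its own ChIP and input, in 2 biological replicates per the labels, and no wild-type sample is listed, so what either mutant lost or kept cannot be read from these values. The table holds 1 column of raw counts for each of the 8 groups, so no value has a replicate error, no test between groups was possible, and the 95% intervals cover counting error only. The embryos are whole, so a level averages over all cell types present.

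H3K9me2 and H3K9me3 are marks of heterochromatin, the compact and mostly silent part of the genome. In worms the outer parts of the autosomes are rich in repeats and in these marks, whereas the centres recombine little and hold many of the broadly expressed genes. MET-2 is the worm relative of mammalian SETDB1 and adds the first methyl groups to H3K9, while trimethylation of H3K9 in worm embryos depends largely on SET-25. A met-2 mutant therefore tests which trimethylation is placed without MET-2, and a set-25 mutant tests which dimethylation is present when SET-25 is missing.

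At the median window of the centre, H3K9me2 had 160 ChIP and 202 input counts in met-2, and 34 ChIP and 264 input counts in set-25. H3K9me3 had 226 ChIP and 526 input counts in met-2, and 74 ChIP and 251 input counts in the H3K9me3 library labelled set-25. At the median window the 95% Poisson interval ran from 30.7% below to 39.7% above the count in the shallowest of these, H3K9me2 in set-25. In 906 windows (7.01%) no read was counted in the H3K9me3 ChIP labelled set-25, against at most 2 windows in any other ChIP, and there the log2 value is set by the 0.1 CPM added. Input counts of the 2 marks correlated across these windows at -0.31 (met-2) and 0.09 (set-25 label), while inputs of the same mark correlated at 0.77 for H3K9me2 (met-2 with set-25) and 0.96 for H3K9me3 (met-2 with the library labelled set-25, whose label is in doubt as given next). Inputs of the same experiment were thus more alike than those of the same label, and where the choice of input changes a result, both values are given.

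The met-2 and set-25 genes both lie on chromosome III, and windows missing from 1 strain were used to compare the labels between libraries. Only 1 run of more than 1 window in the centre was missing from the H3K9me2 input of met-2 and present in that of set-25, from 8376501 to 8377500, and it was taken as the met-2 deletion. In the gene table of another build (WBcel235) the protein-coding neighbours of met-2 are lmbr-1 and R05D3.12. Over the run, H3K9me2 libraries of met-2 held 0 counts in the ChIP and 0 in the input, where the flanks predicted 369.9 and 438.6. H3K9me2 libraries of set-25 held 74 counts in the ChIP of 60.9 predicted and 513 in the input of 571.9 predicted. The H3K9me2 inputs chose the run, so their counts over it are no check of the labels. Their ChIP counts took no part in that choice, and each went with its own input. No gene was placed on this build, so these counts alone do not show which strain carries which deletion. For H3K9me3, libraries of met-2 held 6 of 449.4 predicted counts in the ChIP and 0 of 1224.8 in the input. They thus lacked the run like the H3K9me2 libraries of the same label. Under the set-25 label for H3K9me3 the input was different, with 2 of 607.9 predicted counts over the run. The ChIP of that label held 15 of 139.5, with an exact 95% interval of 8.40 to 24.7 for counting error only. Single flanking windows of that ChIP ranged from 2 to 191 counts, and 2 adjacent ones held 2 counts each. Its low count over the run therefore does not by itself show that the ChIP lacked it.

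The window before the run was low as well in 5 libraries. It held 39 counts in the ChIP and 59 in the input for H3K9me2 of met-2, where the 20 flanking windows ranged from 119 to 256 in the ChIP and from 165 to 298 in the input. For H3K9me3 of met-2 it held 64 counts in the ChIP and 196 in the input, against flanks of 133 to 395 and 334 to 893. The input labelled set-25 for H3K9me3 held 113 counts in it, against flanks of 143 to 456. All 5 of these values lie below every flanking window of their library. The H3K9me3 ChIP labelled set-25 held 99 counts in that window, inside its flank range of 2 to 191.

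Outside the centre a run from 13287501 to 13289000, taken as the set-25 deletion, was missing from the H3K9me2 libraries of set-25, with 6 of 340.95 predicted counts in the ChIP and 4 of 599.55 in the input. The H3K9me3 input labelled set-25 lacked it too (2 of 806.25), but its ChIP held 1431 of 1029.9. The H3K9me3 input labelled set-25 thus lacked both runs, and its ChIP and input differed from each other. Each result below that uses the H3K9me3 library labelled set-25 rests on these libraries, and the met-2 value beside it stands without them.

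**Figure D1:**
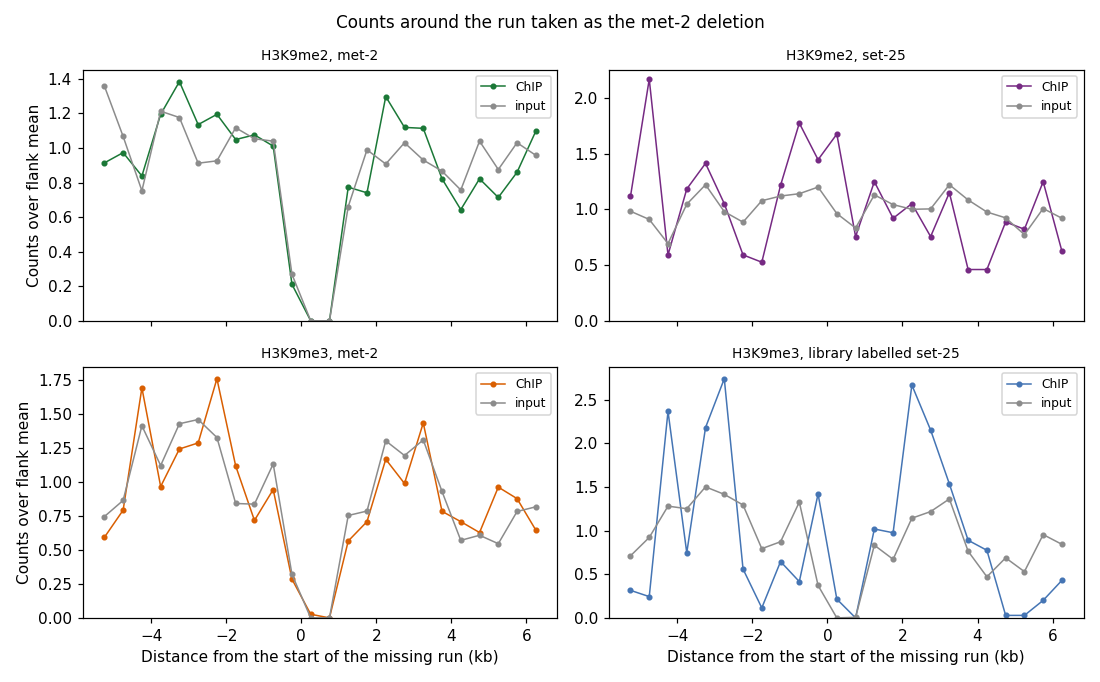
Counts per 500 bp window, divided by the mean of the 20 flanking windows, against distance in kb from the start of the run taken as the met-2 deletion, with ChIP in colour and input in grey for each of the 4 ChIP and input pairs. Over the run at most 6 counts remain in any met-2 library and 2 in the H3K9me3 input labelled set-25, while counts stay within the range of the flanks in the H3K9me2 libraries of set-25, where 74 ChIP counts met 60.9 predicted.

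H3K9me2 was low across the centre in set-25 embryos and close to input in met-2 embryos. The centre held 7.87% of all H3K9me2 ChIP counts of met-2 and 2.73% of those of set-25, whereas it held 7.43% of the input counts of either strain. From the summed counts of all 12917 windows, met-2 stood at log2 0.08 (0.080 to 0.086) and set-25 at -1.45 (-1.453 to -1.445). The median window stood at 0.06 in met-2 (quartiles -0.21 and 0.33) and at -1.69 in set-25 (-2.10 and -1.27). Over all kept windows of the genome the medians were -0.01 in met-2 and -1.33 in set-25, so the strains already differed at the genome median, and against it the centre was higher in met-2 and lower in set-25. The upper quartile of set-25 was far below the lower quartile of met-2. In met-2 0.596% of the windows were more than 2-fold below input, against 85.1% in set-25, where the genome had 2.25% and 62.0%.

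H3K9me3 of met-2 was within 2-fold of input in most windows of the centre, with a tail of high windows. More than 2-fold below input were 6.12% of the windows in met-2 and 33.2% in the library with the set-25 label. Over the genome these shares were 8.54% and 31.5%, so that of the set-25 label was near its genome share. Its summed log2 value was 0.18 (0.178 to 0.181) in met-2 and -0.14 (-0.139 to -0.134) in the library with the set-25 label, and the median windows stood at -0.30 and -0.41. In met-2 the summed value lay above the upper quartile of single windows (0.06). The 95th percentile was 1.23 in met-2 and 0.97 in the library with the set-25 label, and the 5th percentile -1.04 and -4.61. The spread of single windows (SD) was 0.73 and 1.55.

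Windows more than 2-fold above input, called enriched here, were counted next. For H3K9me2 they were 246 in met-2 (1.90%) and 153 in set-25 (1.18%), where over all windows of the genome 1.34% and 10.3% were enriched. For H3K9me3 they were 816 in met-2 (6.32%) and 582 in the library with the set-25 label (4.51%), where 4.1% and 6.81% were enriched over the genome. When libraries were centred by their genome medians, H3K9me2 was enriched in 1.97% of the windows in met-2 and 5.56% in set-25, so which strain had more turned with the scaling. In the scaling to totals the share in set-25 for H3K9me2 was far below its background, and that in met-2 for H3K9me3 was above it. With the input of the other mark, 10.4% of the windows were enriched for H3K9me2 in met-2, 10.4% for H3K9me3 in met-2 and 12.5% for H3K9me3 under the set-25 label, while H3K9me2 in set-25 stayed at 1.35%. Genome shares were not calculated after centring or with that input, so the genome shares above are no background for these values. At least 1 library was enriched in 1532 windows of the centre (11.9%, against 19.4% over the genome), exactly 1 library in 1277 windows (9.89%, against 16.5% over the genome), and all 4 in 0 windows (0.0136% over the genome).

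The rest of chromosome III, 7164 windows before the centre and 6648 after it, differed most for H3K9me2 in set-25. There 1.18% of windows were enriched in the centre, 44.4% before it and 19.2% after it, and mean log2 enrichment was -1.64 in the centre, 0.83 before it and -0.38 after it. In met-2, 1.90% of windows were enriched for H3K9me2 in the centre, against 0.907% before it and 1.32% after it, with means of 0.07, -0.10 and -0.08. Mean enrichment in the centre was above the rest of III in met-2 and below it in set-25: the centre minus the rest of III was 0.15 in met-2 and -1.88 in set-25.

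H3K9me3 in met-2 was enriched in 6.32% of the windows of the centre, 1.07% of those before it and 1.59% of those after it, and the mean in the centre minus that in the rest was 0.24. Over the H3K9me2 input in place of its own input this difference was -0.03, so its direction depended on the input. In the library with the set-25 label, 4.51% of windows were enriched in the centre, 11.9% before it and 12.6% after it, and the centre minus the rest was -0.55. None of these differences has a replicate error, and neighbouring windows are not independent of each other.

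**Figure D2:**
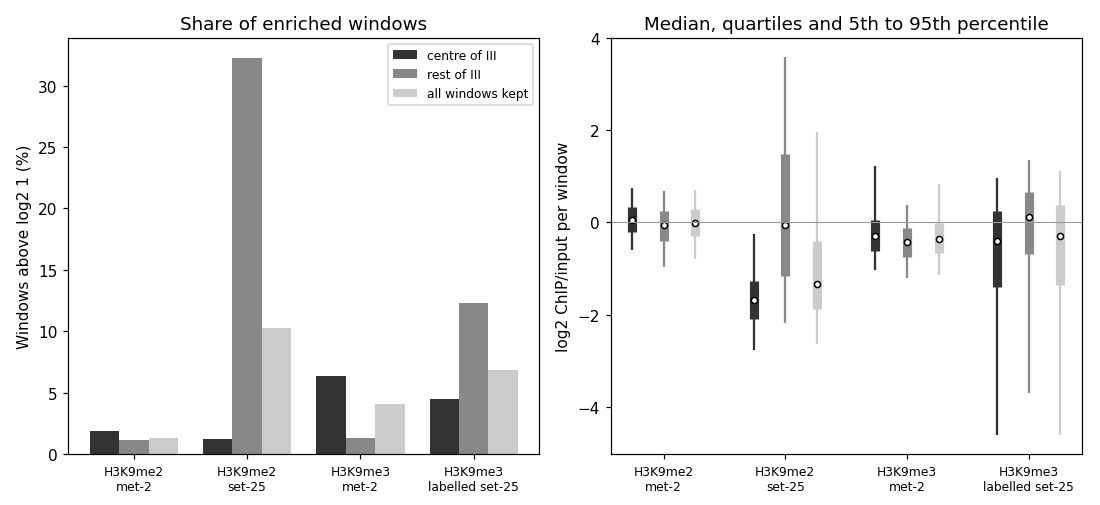
Left, percent of windows above log2 1 in the centre of III (12917 windows), the rest of III (13812) and all kept windows (191140) for each ChIP over its own input. Right, log2 ChIP over input of single windows, with the median (circle), quartiles (thick line) and 5th to 95th percentile (thin line): H3K9me2 in set-25 has a median of -1.69 in the centre, against -0.05 in the rest of III, while the other 3 libraries have closer medians.

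Just inside and just outside the boundaries of the centre H3K9me2 of set-25 had similar values. In the first 100 kb, H3K9me2 in set-25 had a median of -1.25 and 4.02% enriched windows, against -1.26 and 7.54% in the 100 kb before the centre. In the last 100 kb it had -1.34 and 4.55%, against -1.55 and 5.10% in the 100 kb after it. In windows at least 1 Mb from either edge the median was -1.73 and 0.913% were enriched. H3K9me2 of set-25 was thus lower over the interior as a whole than toward both edges. The interior was uneven, and its 50 kb bin centred 3.025 Mb from the left edge had a median of -0.91. The first and last 50 kb bins of the centre had -1.12 and -1.34. H3K9me3 in the library with the set-25 label had medians of 0.07 in the first and 0.34 in the last 100 kb, against -0.07 in the 100 kb before the centre, -0.11 in the 100 kb after it and -0.47 in the interior. Over the same stretches H3K9me3 in met-2 ran the other way, with 4.02% of windows enriched in the first 100 kb, 0 in the last 100 kb and 7.42% in the interior.

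In 27 bins of 250 kb (the last of 118 kb), medians and shares of enriched windows varied by different amounts in the 4 libraries. The median of H3K9me2 lay between -0.03 and 0.19 in met-2 and between -1.88 and -1.31 in set-25. The median of H3K9me3 lay between -0.45 and -0.03 in met-2 and between -0.73 and 0.21 in the library with the set-25 label. So no bin of the centre reached a median of log2 1 in any library, and H3K9me2 of set-25 was more than 2-fold below input at the median of each bin.

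Shares of enriched windows for H3K9me3 in met-2 ran from 0 in 2 bins to 18.3% in the bin from 6722001 to 6972000. The bins from 7472001 to 7722000 (16.8%), from 4972001 to 5222000 (13%), from 6472001 to 6722000 (12.4%) and from 8722001 to 8972000 (11.4%) came next. The 5 highest bins of each library held 58.9% of the windows enriched for H3K9me2 in met-2, 38.6% in set-25, 42.8% of those for H3K9me3 in met-2 and 26.3% in the library with the set-25 label. The same bin from 6722001 led for H3K9me2 in met-2, with 61 of its 480 windows enriched (12.7%). For H3K9me2 in set-25 the 3 highest bins were the first (4.13%), the last (3.90%) and the bin from 7472001 (2.49%). In the library with the set-25 label for H3K9me3 the shares were more even, between 2.44% and 10.4%, with the highest share in the last bin.

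**Figure D3:**
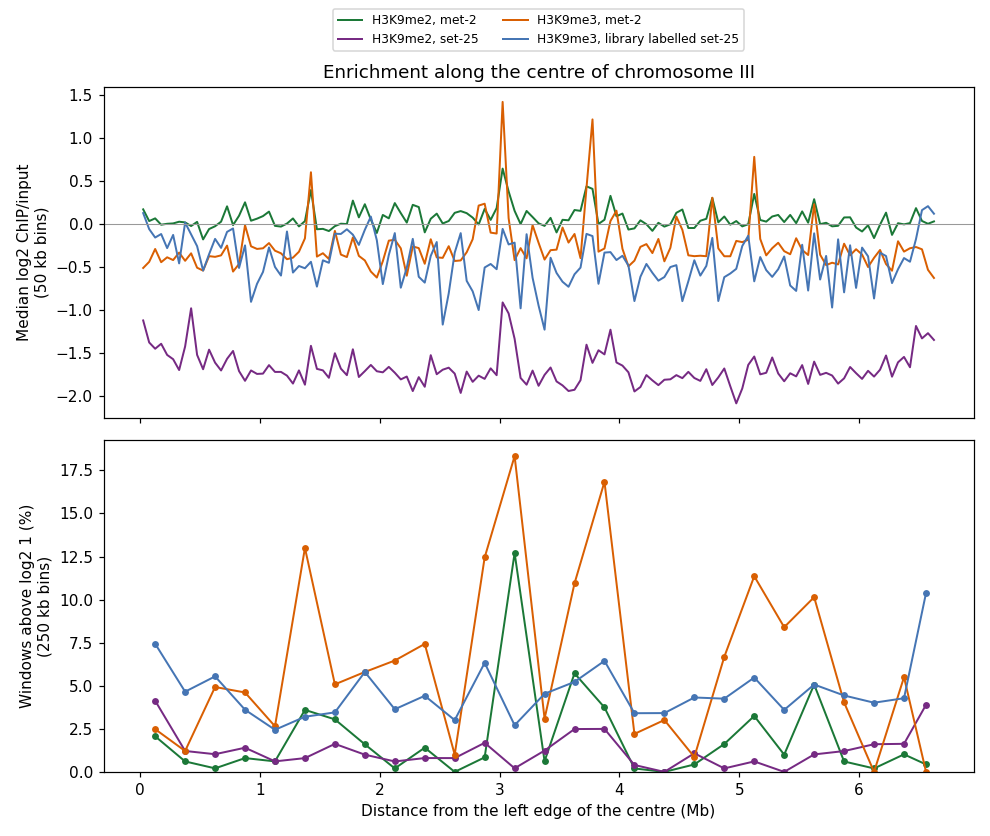
Top, median log2 ChIP over input in 50 kb bins, and bottom, percent of windows above log2 1 in 250 kb bins, for the 4 libraries against distance in Mb from the left edge of the centre. H3K9me3 of met-2 rises in narrow peaks, up to 18.3% of the windows of a bin, while H3K9me2 of set-25 lies below the others in nearly all bins of the upper plot. It is higher at both ends and around 3.025 Mb, where its median is -0.91.

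Enriched windows lay in long runs mainly for H3K9me3 in met-2. The 816 windows of H3K9me3 in met-2 formed 172 runs of adjacent windows, of which 64 had at least 4 windows and 21 had at least 10 windows (5 kb), called domains. In the other libraries the enriched windows formed 148 runs with 2 domains (H3K9me2, met-2), 113 runs with no domain (H3K9me2, set-25) and 505 runs with no domain (H3K9me3, set-25 label). The H3K9me2 domains of met-2 were 0 with the input of the other mark, and with libraries centred by their genome medians there were 2 in met-2 and 3 in set-25. Single windows made up 8.58% of the enriched windows for H3K9me3 in met-2, against 43.1%, 56.2% and 75.1% in these 3. The longest H3K9me2 run was 13 windows in met-2 and 7 in set-25, and the longest H3K9me3 run 53 windows in met-2 and 5 in the library with the set-25 label. Runs and domains were not counted outside the centre, so these counts have no background beside them. Depth differed too: H3K9me3 in met-2 had a median of 226 ChIP counts per window, and the other 3 had 160, 34 and 74. Runs were not compared at equal depth.

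The correlation of a window with the next one along the chromosome was highest for H3K9me3 in met-2 and lowest in the library with the set-25 label. For H3K9me2 it was 0.46 in met-2 and 0.48 in set-25, and for H3K9me3 it was 0.78 in met-2 and 0.37 in the library with the set-25 label, over 12814 pairs. At a distance of 5 kb, over 12699 pairs, it was 0.11 in met-2 and 0.09 in set-25 for H3K9me2, and 0.37 in met-2 and 0.04 with the set-25 label for H3K9me3. Neighbouring windows share fragments and base composition, and these values describe each library only.

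The 21 H3K9me3 domains of met-2 covered 206.5 kb, 3.12% of the length of the centre, and held 50.6% of its H3K9me3-enriched windows. They measured 5 to 26.5 kb with a median of 8.5 kb. Gaps between neighbours ran from 2 to 857.5 kb with a median of 187 kb, and 10 of the 21 had a neighbour within 20 kb. The domains were chosen by H3K9me3 of met-2, so their level in that library, 1.46 to 3.13 with a median of 2.37, describes them and is no finding.

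The other 3 libraries took no part in that choice. H3K9me2 of met-2 was between 0.35 and 1.23 over the 21 domains, with a median of 0.80, and 21 of 21 were above the summed value of the centre (0.08). In set-25, H3K9me2 was between -2.02 and 0.40 with a median of -1.26, and 13 of 21 were above that library's summed value (-1.45). H3K9me3 in the library with the set-25 label was between -0.80 and 0.40 with a median of 0.00, and 16 of 21 were above its summed value (-0.14). For H3K9me2, 2 of the 21 exceeded 1 in met-2 and 0 in set-25, and for H3K9me3 0 did in the library with the set-25 label.

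The H3K9me2 level of these domains depended on the input in both strains. Own H3K9me2 input of met-2 over the domains was 0.58 to 1.06 times the median of the centre, while the H3K9me3 input of met-2 was 1.14 to 2.10 times its median, above 1 in 21 of 21. With the H3K9me3 input in place of its own, the median of H3K9me2 in met-2 was 0.46 over the domains, and the median of all windows of the centre was also 0.46. With that input the domain median of H3K9me2 in met-2 thus did not stand above the median single window of the centre. The domain values come from summed counts, and the summed value of the centre was not calculated with that input. For H3K9me2 of set-25 the input labelled set-25 of the H3K9me3 experiment gave a median of -1.67 over the domains and -1.47 over all windows of the centre. The domain median thus lay below the median single window with that input, and above it with the own H3K9me2 input (-1.26 and -1.69). H3K9me3 of met-2 stayed above 1 in 21 of 21 with the H3K9me2 input, at 1.75 to 4.46.

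**Figure D4:**
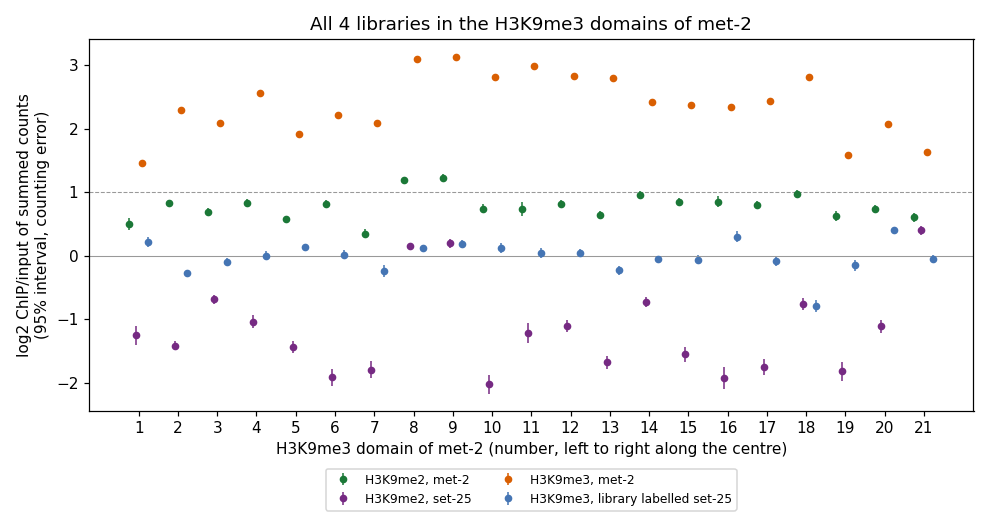
Log2 ChIP over input of summed counts, with 95% intervals for counting error, in the 21 H3K9me3 domains of met-2 numbered from left to right along the centre, for all 4 libraries. H3K9me3 of met-2, which chose the domains, lies between 1.46 and 3.13, H3K9me2 of met-2 between 0.35 and 1.23, H3K9me2 of set-25 between -2.02 and 0.40, and the H3K9me3 library labelled set-25 between -0.80 and 0.40.

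Median values changed over several windows at the domain edges. In H3K9me3 of met-2 the median over 42 edges (39 or 40 outside, where windows passed the floor) was 1.34 in the first window inside, 1.61, 2.01 and 2.31 in the next 3 windows and 2.50 in the fifth, and outside it was 0.69 in the first window, 0.35 in the second and -0.05 at 5 kb. The step across the edge is set by the definition of a domain, as largely are values near 1 on either side of it. Medians over many edges do not show the shape of a single one. Over its own input, H3K9me2 of met-2 had 0.45, 0.56, 0.71, 0.82 and 0.86 inside, and 0.30 in the first window and 0.21 at 5 kb outside. In set-25 H3K9me2 was -1.56 in the first window inside and -1.34 in the fifth, against -1.53 in the first window outside and -1.89 at 5 kb.

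The longest domain ran from 6746501 to 6773000 (26.5 kb) and the domain after it from 6785501 to 6794500. Together with what lies between them they form a stretch of 48 kb, singled out after its values were seen. It has 96 windows, of which 81 passed the input floor, and the other 15 were under the floor in at least the H3K9me2 input of met-2. Each of the 81 windows was enriched for H3K9me3 in met-2, which chose its 2 domains, and 3 under the set-25 label. For H3K9me2 over its own input, 59 were enriched in met-2 and 1 in set-25. The 59 are 24% of all windows of the centre enriched for H3K9me2 in met-2.

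Over these 81 windows H3K9me2 held 21911 ChIP and 12277 input counts in met-2, a log2 enrichment of 1.19 (1.16 to 1.22), and 8920 ChIP and 18824 input counts in set-25, a log2 enrichment of 0.11 (0.07 to 0.14). The difference is 2.12-fold. It is smaller than in the centre as a whole, where the 2 strains stood at 0.08 and -1.45. H3K9me3 held 317975 ChIP and 73672 input counts in met-2, a log2 enrichment of 3.07 (3.06 to 3.08), and 14171 ChIP and 31709 input counts in the library with the set-25 label, a log2 enrichment of 0.16 (0.13 to 0.19), which is 7.51-fold lower. Over its own input H3K9me2 of set-25 was thus near input here, well above its level in most of the centre. Over the longest domain the H3K9me2 inputs were 0.77 (met-2) and 0.90 (set-25) times the median of the centre. The H3K9me3 inputs there were 1.76 (met-2) and 1.59 (set-25 label) times the median. With the H3K9me3 inputs, H3K9me2 was at most 0.95 in met-2 and -0.30 in set-25 in any of the 21 domains. In 1 run of the stretch, from 6755001 to 6758000, H3K9me2 was 1.44 in met-2 and 0.18 in set-25, a difference of 1.26 that became -0.06 when libraries were centred by their genome medians.

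**Figure D5:**
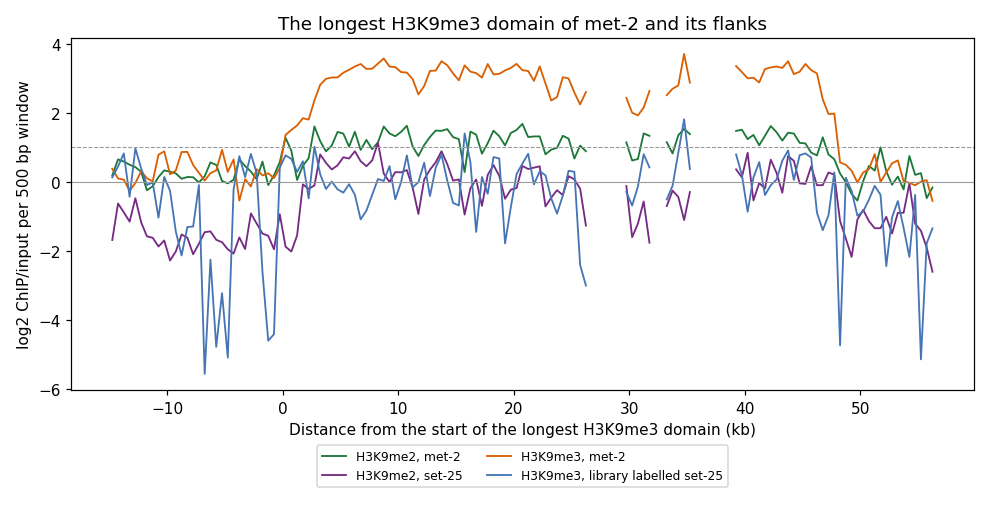
Log2 ChIP over input of single 500 bp windows in the 4 libraries, against distance in kb from the start of the longest H3K9me3 domain of met-2, with breaks where windows were under the input floor and a dashed line at log2 1. H3K9me3 of met-2 climbs over the first few kb to a plateau near its summed value of 3.09 and H3K9me2 of met-2 lies near 1.19, while over the domain the H3K9me2 library of set-25 sums to 0.15 and the H3K9me3 library labelled set-25 to 0.13.

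Further domains of the centre had strong H3K9me3 in met-2 and H3K9me2 of set-25 below input. From 5111501 to 5131000 (19.5 kb), H3K9me3 was 2.29 (2.27 to 2.31) in met-2 and -0.27 (-0.31 to -0.22) in the library with the set-25 label, a 5.89-fold difference, and H3K9me2 was 0.82 in met-2 and -1.42 in set-25. A domain from 5137001 to 5150000 (13 kb) lay beside it, with H3K9me3 at 2.08 in met-2 and -0.09 in the library with the set-25 label, and H3K9me2 at 0.69 in met-2 and -0.69 in set-25. The one from 5836001 to 5848000 (12 kb) had H3K9me3 of 1.92 in met-2 and 0.13 with the set-25 label, a 3.47-fold difference, and H3K9me2 of 0.58 in met-2 and -1.44 in set-25. From 7509001 to 7520000 (11 kb) H3K9me3 was 2.80 in met-2 and -0.23 in the library with the set-25 label, 8.17-fold apart, while H3K9me2 was 0.64 in met-2 and -1.68 in set-25. Domains thus differed in how much H3K9me2 of set-25 they carried, while none was enriched for it.

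The rightmost domain, from 10175001 to 10183000, had the highest H3K9me2 of set-25 among the 21, at 0.40, with 0.60 in met-2. Its H3K9me3 was 1.63 in met-2 and -0.05 in the library with the set-25 label. The lowest H3K9me2 of set-25 was found from 7295501 to 7302500, at -2.02, where met-2 stood at 0.74 for H3K9me2 and at 2.82 for H3K9me3. The lowest H3K9me2 of met-2 was 0.35, from 6482001 to 6489000, under H3K9me3 of 2.10 in met-2.

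Over all windows of the centre the level of H3K9me2 in met-2 followed that of H3K9me3 in met-2 only at its upper end. In the 4937 windows with H3K9me3 between -0.5 and 0, the median of H3K9me2 in met-2 was 0.01, and in the 790 windows at or below -1 it was 0.03. It was 0.25 in the 664 windows between 0.5 and 1, 0.49 in the 490 windows between 1 and 2 and 0.94 in the 326 windows above 2. Of these 326 windows, 144 (44.2%) were enriched for H3K9me2 in met-2, against 0.344% of the 4937. H3K9me2 of set-25 had medians of -1.73 in the 4937 windows and -1.10 in the 326, and H3K9me3 in the library with the set-25 label had -0.51 and -0.08. Across all 12917 windows H3K9me2 and H3K9me3 of met-2 correlated at 0.37 (Pearson) and 0.19 (Spearman), with the strain and base composition in common. These values use own inputs, and the inputs of the 2 marks in met-2 correlated at -0.31. How far the relation depends on the input was not tested.

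Of the 246 windows enriched for H3K9me2 in met-2, 175 were enriched for H3K9me3 in met-2 as well, which is 71.1% of the H3K9me2-enriched windows and 21.4% of the 816 of H3K9me3. Both marks were enriched in met-2 in 1.35% of the windows of the centre, against 0.735% over the genome. The windows enriched for H3K9me2 in met-2 had a median of 133 counts in their own input, against 203 in the other windows of the centre, while the H3K9me3 input of that strain held a median of 1045.5 counts in them, against 522. They thus combined a low H3K9me2 input with a high H3K9me3 input. With the input of the other mark the overlap was 4.61% of the windows enriched for H3K9me2. For H3K9me3 in met-2 the own input was higher in the enriched windows, with a median of 736 counts against 517, so a low input does not accompany these calls.

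Under the set-25 label the marks were enriched together in fewer windows. Of the 153 windows enriched for H3K9me2 in set-25, 28 (18.3%) were enriched for H3K9me3 under the set-25 label, which is 4.81% of the 582 of that library. Both were enriched in 0.217% of the windows of the centre, against 1.44% over the genome. At least 2-fold differences between the marks were found in both directions. In met-2, H3K9me2 exceeded H3K9me3 in 11.9% of the windows and fell below it in 4.82%, where the genome had 13.7% and 4.48%. With the inputs of the marks exchanged these shares of the centre were 50.6% and 14.2%. Under the set-25 label, H3K9me2 exceeded H3K9me3 in 12.6% and fell below it in 53.3%, where the genome had 22.9% and 39.2%. In the 906 windows without a count in that H3K9me3 ChIP the added 0.1 CPM sets the value. The 12.6% was 7.26% with 0.5 CPM added, 0.153% in windows of 5 kb and 23.6% with the inputs exchanged. When libraries were centred by their genome medians, the met-2 shares were 4.13% and 9.34%, and those under the set-25 label 24.5% and 22.0%. Genome shares were not calculated with these alternatives.

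Between the strains, 11135 windows of the centre (86.2%) had H3K9me2 higher by 2-fold or more in met-2 than in set-25, where the genome had 60.2%, and lower in 143 (1.11%), where it had 9.81%. The median difference was 1.76, with quartiles of 1.32 and 2.19. When libraries were centred by their genome medians, 18.7% were higher and 4.62% lower, with no genome share calculated in that scaling. Windows higher in met-2 outnumbered lower ones in both scalings, but they were a majority of the centre only in the scaling to totals.

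Few of the windows with higher H3K9me2 in met-2 were enriched there, while most of the 143 with lower H3K9me2 were enriched in set-25. The levels of the libraries, with median windows at 0.06 in met-2 and -1.69 in set-25, largely fix this contrast. For H3K9me2, 211 windows were higher in met-2 and enriched there, in 144 runs, and 117 were lower in met-2 and enriched in set-25, in 94 runs, and most runs in either direction were single windows. For H3K9me3, 4296 windows (33.3%, 29.7% over the genome) were at least 2-fold higher in met-2 and 1820 (14.1%, 19.6% over the genome) lower than in the library with the set-25 label, with a median difference of 0.29. Of these, 691 were enriched in met-2, in 165 runs with 18 of at least 5 kb, and 477 were enriched in the library with the set-25 label, in 415 runs with none of 5 kb. Windows both different and enriched were not counted over the genome for either mark, so these counts have no background beside them.

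The 5 longest runs in which H3K9me2 was higher in met-2 and enriched there also had high H3K9me3 in met-2, between 2.57 and 3.27. The longest of them, from 9339001 to 9342500 (3.5 kb), had H3K9me2 of 1.48 (1.33 to 1.64) in met-2 and -1.26 (-1.46 to -1.06) in set-25, with H3K9me3 of 2.57 in met-2. Its H3K9me2 input was 0.34 times the median of the centre in met-2 and 0.70 times in set-25, and its H3K9me3 inputs were 4.23 and 3.23 times the median. The next window to its left, from 9338501, failed the floor in met-2, with 17 counts in the H3K9me2 input and 2966 in the H3K9me3 input. With the inputs of the other mark the strain difference of 2.74 became 1.48. The runs from 5327501 to 5330000 (1.19 in met-2 and -1.11 in set-25) and from 5997501 to 5999500 (1.204 in met-2 and -1.35 in set-25) had H3K9me2 inputs of 0.79 and 0.80 times the median in met-2, and 1.002 and 1.005 times in set-25.

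In the opposite direction, sharp islands of H3K9me2 stood out in set-25. The strongest run of at least 4 windows lay from 7709501 to 7712500 (3 kb), where H3K9me2 was -0.24 (-0.38 to -0.11) in met-2 and 2.96 (2.88 to 3.05) in set-25, a 9.23-fold difference. Its 6 windows ranged from -0.53 to -0.03 in met-2 and from 1.82 to 3.53 in set-25, a separation that the choice of the run largely fixes. H3K9me3 there was -0.46 in met-2 and 0.67 in the library with the set-25 label. The strain difference of -3.21 was -3.19 with the inputs of the other mark, and the H3K9me2 inputs were 0.93 times the median in met-2 and 0.87 times in set-25.

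A second island, from 6625501 to 6626500, had H3K9me2 of -0.02 in met-2 and 3.10 in set-25, 8.67-fold apart, and held the window with the highest H3K9me2 of set-25 in the centre, 3.58, with 996 ChIP and 186 input counts. In the library with the set-25 label for H3K9me3 the longest enriched run of the centre, from 6625001 to 6627500, covers it, at 1.19 (1.02 to 1.35), against -0.14 in met-2. Over own inputs the island was thus high for both marks under the set-25 label. The H3K9me3 input labelled set-25 was 0.52 times the median of the centre over that longest run. From 6625001 to 6627000 the H3K9me3 difference of met-2 minus the set-25 label was -1.37, and -1.01 with the inputs of the other mark. A neighbour from 6631501 to 6632500 had 0.56 in met-2 and 2.64 in set-25 for H3K9me2, and near the left edge a run from 3728501 to 3729500 had 0.41 in met-2 and 2.51 in set-25. The run from 8306001 to 8307500 was weaker, at -0.01 in met-2 and 1.43 in set-25, and its 4 inputs were 0.46 to 0.76 times their medians. Near the right edge a run of 4 windows from 10276501 to 10278500 had H3K9me2 of 0.27 in met-2 and 1.47 in set-25, and near the left edge one from 3875501 to 3877000 had 0.74 in met-2 and 1.19 in set-25.

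The longest H3K9me2 run of set-25, from 7444501 to 7448000, was high in both strains. H3K9me2 was 1.27 (1.14 to 1.39) in met-2 and 1.63 (1.53 to 1.74) in set-25, and H3K9me3 was 0.39 in met-2 and -1.74 in the library with the set-25 label. Its inputs held 0.55 to 0.65 times the median of the centre, and 3 windows to its left and 4 to its right, beyond 1 low window on each side, held at most 5 counts in any input. Its 7 windows ranged from 0.997 to 1.42 in met-2 and from 1.10 to 2.10 in set-25 for H3K9me2. In the centre as a whole 9 windows were enriched for H3K9me2 in both strains (0.0697%), where the genome had 0.367%.

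Runs that were high for H3K9me3 under the set-25 label were short. After the run over the island at 6625001 came runs of 1.5 kb, of which the 4 with the highest summed enrichment lay from 6128501 to 6130000 (-0.27 in met-2 and 1.67 in the library with the set-25 label), from 8736001 to 8737500 (0.04 and 1.35), from 7854001 to 7855500 (-0.51 and 1.33) and from 6478501 to 6480000 (-0.53 and 1.24). H3K9me2 of set-25 over these 4 runs was -2.14, 0.08, -2.60 and -1.77, so they were not high for both marks. Another run of that length, from 5024001 to 5025500, had H3K9me3 of -0.41 in met-2 and 1.19 with the set-25 label. The highest single window, from 8918001 to 8918500, had 476 ChIP and 190 input counts, a log2 enrichment of 2.62, against -0.42 in met-2. H3K9me3 of met-2 and H3K9me2 of set-25 were enriched together in 7 windows (0.0542%), where the genome had 0.526%. Only 44 windows were enriched for H3K9me3 in both met-2 and the library labelled set-25 (0.341%), where the genome had 0.227%, and these are 5.39% of the 816 windows of met-2 and 7.56% of the 582.

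The highest single window for H3K9me3 in met-2, from 6781001 to 6781500, reached 3.70 with 752 ChIP and 102 input counts, between the 2 domains of the 48 kb stretch. The next, from 7514001 to 7514500, had 4720 ChIP and 763 input counts, a log2 enrichment of 3.57, with 46 and 436 counts (-1.88) in the library with the set-25 label. It lies inside the domain from 7509001 to 7520000. For H3K9me2 in met-2 the highest window, from 8863501 to 8864000, reached 2.41 with 115 ChIP and 25 input counts, and that input is close to the floor. The same window had 25 ChIP and 115 input counts for H3K9me2 in set-25, a log2 enrichment of -0.96.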

How the data were processed

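The values are raw read counts per 500 bp window, deposited by the authors as 1 table with 8 columns, 1 for each ChIP and each input of a mark and strain. The labels list 16 samples, 2 replicates for each of the 8 groups, but no source used here says if columns hold 1 replicate or both added. The name of 1 column, the H3K9me3 ChIP of met-2, ends in 1, and the other names carry no replicate number. Aligner and genome assembly were not given in the sources used here. Embryos were fixed with 2% formalin for 30 min, per the labels' protocols. All 8 columns were used and 0 were left out. ChIP totals ran from 19732750 to 58645635 counts and input totals from 34007808 to 114221896.

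Counts were scaled to the total of each column (CPM) and 0.1 CPM was added before the log2 ratio of ChIP over its own input. Summed regions have exact 95% Clopper-Pearson intervals on the ChIP share of the counts, which cover counting error only. The test planned for replicate columns (limma) could not be run, so no p-value is given. The calculation was tested on simulated counts. Python 3.11.15, numpy 2.4.6, pandas 2.3.3, scipy 1.17.1 and matplotlib 3.10.9 were used.

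The regions named were taken from the 5 longest runs of adjacent enriched windows per library, and the 5 longest per direction and mark that differ at least 2-fold between strains and are enriched in the higher library, with the H3K9me3 domains of met-2 at the extremes of the other libraries, the highest single windows and the 48 kb stretch added after their values were seen. The members, lists and rules were chosen with earlier results of these data known. In 4 of 5 autosomes the WBcel235 gene table has a gene beyond the last window, so it served for names and neighbours only, planned gene lists were not used and no sequence is printed. Alternatives were another pseudocount, input floor, scaling, input, window size and threshold.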

Additional observations from a re-analysis of the deposited data

Results flagged for a closer look

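The centre of chromosome III minus the rest of III had opposite signs between the libraries labelled met-2 and set-25 for each mark over its own input. For H3K9me2 the difference of mean log2 enrichment was 0.15 in met-2 and -1.88 in set-25. For H3K9me3 it was 0.24 in met-2 and -0.55 in the library labelled set-25, whose label is in doubt. Over 8376501 to 8377500 the input of that library held 2 of 607.9 predicted counts, unlike the H3K9me2 libraries of set-25. Over 13287501 to 13289000 the ChIP of that library held 1431 of 1029.9, also unlike them, while its input held 2 of 806.25, like them. With the input of the other mark the H3K9me3 differences were -0.0272 and -0.67, of the same sign. The difference between the libraries was not tested, since each group has 1 column.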

How the results depend on the processing

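Of the alternative values of the main results 112 stayed, 72 moved and 1 reversed. Shares and counts stayed if they were within 1.5 times. No genome share was calculated under an alternative. The centre minus the rest of III stayed only within a small fixed margin, which is no measured spread. With totals that left out the most covered 1% of windows none of them moved. In each group of values below, met-2 comes before set-25 and H3K9me2 before H3K9me3.

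Centre minus the rest of III, for H3K9me2 and then H3K9me3, was 0.14 and -1.71, then 0.22 and -0.47, with a pseudocount of 0.5 CPM. It was 0.14 and -1.91 for H3K9me2 and -0.56 for H3K9me3 labelled set-25 with an input floor of 50, and -1.85 and -0.55 in the set-25 libraries with no floor. It was 0.12 and -1.64, then 0.13 and -0.53, with medians in place of means. With the input of the other mark it was 0.42 and -1.77, then -0.0272 and -0.67, so that of H3K9me3 in met-2 reversed. In 5 kb windows it was -2.14 for H3K9me2 in set-25, and 0.31 and -0.48 for H3K9me3.

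Enriched windows were 5.56% for H3K9me2 in set-25 and 10.1% for H3K9me3 labelled set-25 when libraries were centred on their genome medians. They were 10.4% for H3K9me2 in met-2, and 10.4% and 12.5% for H3K9me3, with the other input. They were 0.763% and 0.229% for H3K9me2, and 0.0763% for H3K9me3 labelled set-25, in 5 kb windows. They were 13.8% and 2.14%, then 11.5% and 16.2%, above log2 0.5, and 0.0155% and 0.271%, then 2.52% and 0.132%, above log2 2.

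H3K9me2 higher and lower in met-2 were 18.7% and 4.62% when centred, and 35.2% and 0.286% at log2 2. H3K9me2 lower was 0.229% in 5 kb windows and 1.90% at log2 0.5. H3K9me3 higher and lower were 14.2% and 4.81% in 5 kb windows and 18.0% and 1.04% at log2 2, and lower was 27.6% at log2 0.5.

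H3K9me2 above and below H3K9me3 in met-2 were 4.13% and 9.34% when centred, 50.6% and 14.2% with the other input, 36.9% and 12.4% at log2 0.5, and 0.286% and 0.604% at log2 2, and above was 1.98% in 5 kb windows. Under the set-25 label they were 24.5% and 22.0% when centred and 7.37% and 22.9% at log2 2. Above was 23.6% with the other input, 7.26% with a pseudocount of 0.5 CPM and 0.153% in 5 kb windows. The overlap of marks in met-2 was 4.61% with the other input and 39.8% at log2 0.5.

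Domains of H3K9me2 were 3 in set-25 when centred and 3 in 5 kb windows, and in met-2 0 with the other input, 14 at log2 0.5 and 0 at log2 2. Domains of H3K9me3 in met-2 were 45 in 5 kb windows and 12 at log2 2, and 1 in the library labelled set-25 in 5 kb windows. A 5 kb window alone counts as a domain. Of the values of named runs 36 stayed, 23 moved and 1 reversed: the H3K9me2 difference from 6755001 to 6758000 was -0.0649 when centred. The cause was not tested for any of these.

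No paired analysis was possible because each group has 1 column, and no replicate number is shared between columns. Leaving out replicates was not run, since no group has more than 1 column. The H3K9me2 ChIP of set-25, with a median of 34 counts per window, limits what can be seen in single windows.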
